A study of Mus musculus with 3 samples.

Results

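The tripartite motif (TRIM) genes of CT26.WT cells, a mouse colon carcinoma line, were followed over 3 arrays: 1 of cells given S100a8, 1 of cells given S100a9 and 1 control. Members were the probe sets whose gene symbol reads Trim plus a number and at most 1 letter, which gave 111 of the 45101 probe sets and 58 of the 18193 named genes. The cells of all 3 arrays, the control included, had 12 h without serum. The treated cells were kept for 24 h with recombinant S100a8 or S100a9 at 4 µg/ml. The control had no S100 protein, and its labels disagree on what it did receive, naming bovine serum albumin in the title and saline elsewhere. Each group was 1 array, so no difference could be tested and every ratio below compares single arrays of 1 cell line.

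TRIM proteins share a stretch of a RING finger, B-boxes and a coiled coil, and most act as E3 ubiquitin ligases through the RING. The domain after the coiled coil differs between subfamilies and brings the target. Several members are induced by interferon and act on cytosolic sensors of viral nucleic acid, on antibody-coated particles or on NF-kB signalling, while others work in chromatin, at microtubules, in muscle or in embryonic cells. The family name as a set of ubiquitin ligases is therefore approximate: Trim14, Trim16, Trim29, Trim44 and Trim66 are described without a RING. Kin that carry other symbols, such as Pml, Mid1, Mid2 and Mefv, were not members.

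The interferon-linked group was a list of 16 genes described as interferon-induced or as acting in interferon induction. Of these, 12 had a probe set of their own: Trim5, Trim6, Trim12a, Trim12c, Trim14, Trim21, Trim25, Trim26, Trim30a, Trim30d, Trim34a and Trim56. The other 4 (Trim30b, Trim30c, Trim34b and Trim38) had none with a single symbol. The list is a choice, made with earlier results of these data known, and is not exhaustive. Trim65, for example, is described as a ligase for an RNA sensor but was counted with the other TRIM genes. In the RefSeq annotation (GRCm38.p6), Trim6, Trim34a, Trim5, Trim12a, Trim34b, Trim12c, Trim30b, Trim30c, Trim30a and Trim30d lie in that order on chromosome 7. Such neighbours are close in sequence, so probe sets of Trim30a, Trim30d, Trim34a, Trim5, Trim12a and Trim12c may take up transcripts of each other.

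The interferon-stimulated response element is the site that interferon-activated transcription factors bind. It was sought as TTTC, any 2 bases and TTTC again, on both strands, in RefSeq promoters (GRCm38.p6) of 300 bases (250 before the start and 50 after it). At least 1 match lay in the promoters of 8 of the 15 interferon-linked TRIM genes with a listed promoter and of 1 of the 38 other TRIM genes, Trim2. Over all 27025 genes with a listed promoter, 3.99% had a match in at least 1. A match is a description of the letters, not a shown site. The 8 are printed because 5 of them belong to genes with lower signals in treated cells. Each is printed 5′ to 3′ on the strand of the gene, with the matches in capitals and 20 bases on each side.
Trim30a (chr7:104465200-104465249, minus strand): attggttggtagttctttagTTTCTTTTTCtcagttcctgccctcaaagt
Trim30d (chr7:104507861-104507910, minus strand): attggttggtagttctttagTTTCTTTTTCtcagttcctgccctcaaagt
Trim5 (chr7:104288126-104288175, minus strand): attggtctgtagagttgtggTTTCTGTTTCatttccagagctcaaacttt
Trim12a (chr7:104315456-104315505, minus strand): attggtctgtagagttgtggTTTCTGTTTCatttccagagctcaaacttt
Trim12c (chr7:104353349-104353398, minus strand): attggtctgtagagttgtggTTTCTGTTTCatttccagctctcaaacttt
Trim34a (chr7:104244447-104244496, plus strand): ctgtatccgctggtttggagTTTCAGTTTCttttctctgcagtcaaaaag
Trim21 (chr7:102565434-102565489, minus strand): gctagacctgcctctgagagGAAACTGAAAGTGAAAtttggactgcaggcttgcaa
Trim26 (chr17:36836966-36837021, plus strand): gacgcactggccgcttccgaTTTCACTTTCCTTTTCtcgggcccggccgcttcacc

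The stretches of Trim30a and Trim30d were identical over all 50 bases, and so were those of Trim5 and Trim12a. Trim12c differed from Trim12a at 2 of 50 bases. A further listed start of Trim30a had the same 10-base match, in a stretch that differed from that of Trim30d at 12 bases. These promoters share sequence as neighbouring copies, so the 8 are not independent cases. In Trim21 and Trim26 the matches overlapped, 2 in each, reading on the opposite strand in Trim21. The windows of Trim6, Trim25, Trim30b, Trim30c, Trim34b, Trim38 and Trim56 held no match, which says only that these letters were not there. Of these genes, Trim25 and Trim56 had lower signals in treated cells as well.

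The arrays themselves were close in scale, with median signals of 78.6 (S100a8), 73.6 (S100a9) and 76.1 (control). Signals are those of the MAS5 algorithm on a linear scale and are compared only within a probe set. Values under a floor of 76.0, the median of all signals, were set to it. A gene was represented by its brightest probe set and compared when the mean of its log2 signals lay above that floor. Spike-ins added at hybridization had median log2 ratios of 0.02 (S100a8 against control) and −0.01 (S100a9 against control), and the poly-A transcripts spiked in earlier had 0.12 and 0.28. Their part in the ratios below was not tested. Of 5 epithelial markers, Krt18 (1032 with S100a8, 1236 with S100a9, 1447 in the control) and Epcam (113 with S100a8, 85.5 with S100a9, 101 in the control) were compared, while Cdh1, Krt8 and Krt19 were not. Of 4 fibroblast markers compared, 4 lay below control with S100a8 (median −0.53) and 3 with S100a9 (median −0.22). Krt18 and most of these fibroblast markers thus moved the same way as the interferon-linked genes described next. Epcam did so only with S100a9 (log2 ratio −0.24) and was above control with S100a8 (0.16). Among the fibroblast markers, Dcn and Pdgfrb were the lowest with S100a8 (both −0.92). Col1a2 stayed near control (−0.02 with S100a8 and 0.07 with S100a9). The part of these markers in the TRIM ratios was not tested. Where log2 ratios are given below as a pair, the first is S100a8 against control and the second S100a9 against control.

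Of the 58 TRIM genes, 37 were compared, 9 of them interferon-linked and 28 others. All interferon-linked members compared but Trim5 had lower signals in cells given either protein, and the median of the remaining members stayed near the control. On the S100a8 array, 8 of 9 interferon-linked genes lay below control and the median log2 ratio was −0.36, against 10 of 28 other TRIM genes and a median of 0.07. Over all 11138 genes compared, 47.5% lay below control and the median was 0.01. With S100a9, 8 of 9 lay below control with a median of −0.16, against 11 of 28 others and a median of 0.03. There 48.1% of all genes lay below control and the median was 0.00. Trim5 was the 1 interferon-linked member above control with either protein.

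**Figure D1:**
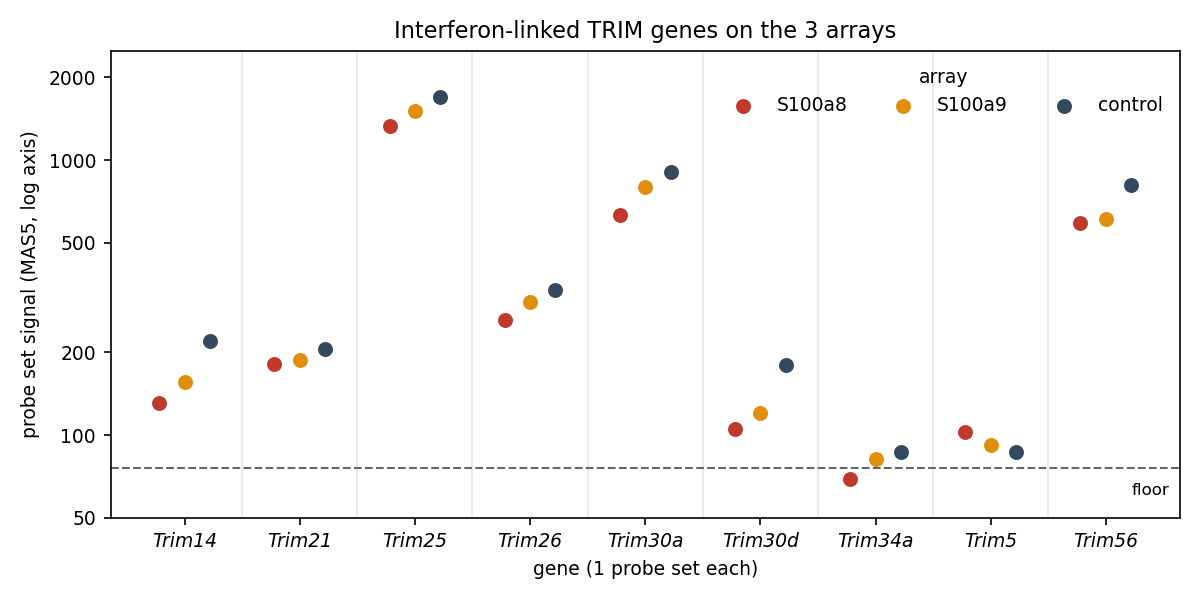
Signal (MAS5, log axis) of the brightest probe set of each compared interferon-linked TRIM gene on each array (S100a8 red, S100a9 orange, control dark blue), 1 point an array, with no error bars since each group is 1 array; the dashed line is the floor of 76.0. For 8 of the 9 genes the S100a8 point is lowest and the control point highest, while Trim5 runs the other way.

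Sizes were modest. At 1.5-fold, a descriptive size, 2 TRIM genes were lower with S100a8 (Trim30d and Trim14), where 1.91% of all compared genes were, and 1 was lower with S100a9 (Trim30d, just past that size), where 0.853% of all genes were. The 37 TRIM genes held 0 at least 1.5-fold higher with either protein, where 1.13% (S100a8) and 0.251% (S100a9) of all genes were. Both counts of lower genes became 0 with a 65th percentile floor or with the mean over a gene's probe sets.

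Among the ligases of sensing pathways, Trim25 attaches ubiquitin to the RNA sensor RIG-I. Its signals were 1326 under S100a8, 1515 under S100a9 and 1696 in control cells, log2 ratios of −0.36 and −0.16 against control. The S100a8 array was the lowest and the control the highest. A further bright probe set of Trim25 had 1081 (S100a8), 1115 (S100a9) and 1292 (control), or −0.26 and −0.21 as log2 ratios to control, whereas a dim one had 82.7 (S100a8), 90.3 (S100a9) and 59.0 (control), with the control below the floor (0.12 and 0.25). Ddx58, the gene of RIG-I, had 525 (S100a8), 638 (S100a9) and 836 (control), and was 1 of the 11 compared genes of a list of kin and partners.

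Trim56, described as an interferon-induced ligase of antiviral signalling, had 592 in S100a8 cells, 610.0 in S100a9 cells and 811 in control cells. Its log2 ratios of −0.45 and −0.41 against control were nearly equal for the proteins. Only 3.82% of all compared genes had a lower ratio than Trim56 with S100a8, and 2.55% with S100a9. Trim26, whose product acts on the transcription factor IRF3, had 263 (S100a8), 304 (S100a9) and 336 (control), or −0.35 and −0.15 as log2 ratios to control. Its further probe set had 121 (S100a8), 143 (S100a9) and 155 (control), or −0.36 and −0.12 as log2 ratios to control, so both ran in the same order over the arrays.

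Trim21, also known as Ro52, is a cytosolic receptor for antibodies bound to pathogens. It had 181 under S100a8, 187 under S100a9 and 205 in control cells, the smallest log2 ratios among the 6 interferon-linked genes at least 1 log2 unit above the floor (−0.18 and −0.14). Its further probe set had 149 (S100a8), 167 (S100a9) and 192 (control), or −0.37 and −0.20 as log2 ratios to control. Both probe sets placed the S100a8 array lowest.

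Trim14, an adaptor of mitochondrial antiviral signalling without a RING, had 130.4 in S100a8 cells, 156 in S100a9 cells and 219.9 in control cells. It was 1.69-fold lower with S100a8 (log2 ratio −0.75) and 1.41-fold lower with S100a9 (−0.50). The control array stood apart from both treated arrays. Its further probe set lay below the floor on each array.

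Trim30a, described in mouse as a brake on NF-kB signalling, had 631 under S100a8, 799 under S100a9 and 906 in control cells. Its log2 ratios were −0.52 and −0.18, and a further probe set gave 445 (S100a8), 548 (S100a9) and 614 (control), or −0.46 and −0.16 as log2 ratios to control. Trim30d, its neighbour with the identical promoter stretch, had 105 (S100a8), 120.1 (S100a9) and 180.4 (control), which was 1.71-fold lower with S100a8 (−0.78) and 1.5-fold lower with S100a9 (−0.59). Only 0.709% of all compared genes had a lower ratio with S100a8. A further probe set of Trim30d had 103 (S100a8), 97.9 (S100a9) and 125 (control), or −0.29 and −0.36 as log2 ratios to control, lower than control on both treated arrays but by less. The mean signal of Trim30d lay within 1 log2 unit of the floor.

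Trim34a and Trim5 lay near the floor. Trim34a had 69.1 in S100a8 cells (below the floor), 82.0 in S100a9 cells and 87.0 in control cells, so it was at least 1.15-fold lower with S100a8. Trim5, whose primate counterpart blocks retroviral capsids, had 103 (S100a8), 92.4 (S100a9) and 86.6 (control), or 0.25 and 0.09 as log2 ratios to control. Trim6, Trim12a and Trim12c lay below the floor on all arrays in every probe set, for example at 41.6 (S100a8), 48.6 (S100a9) and 41.8 (control) in the brightest probe set of Trim6. So 5 of the 8 genes with the promoter match were compared and below the control, Trim5 was above it, and Trim12a and Trim12c were not measured above the floor. Trim25 and Trim56, whose windows held no match, were also below the control with either protein. Trim14, below it too, had no listed promoter and was not searched. Of the 8 compared interferon-linked genes with a listed promoter, 6 had a match. Whether the match goes with lower signals was not tested.

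**Figure D2:**
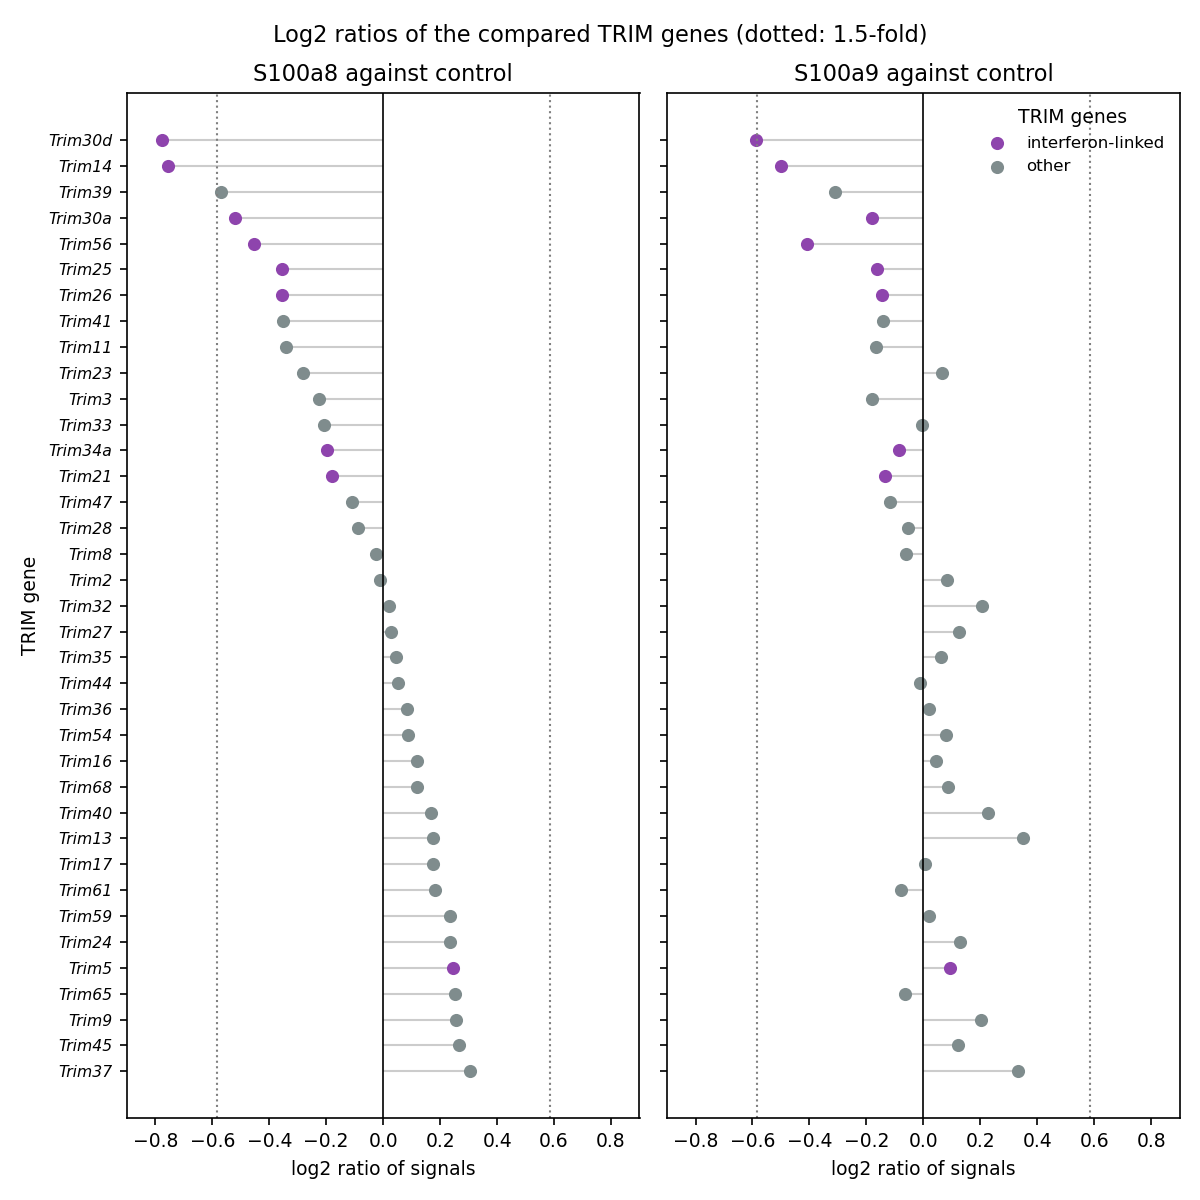
Log2 ratio of signals for the 37 compared TRIM genes, S100a8 against control on the left and S100a9 against control on the right, in the order of the S100a8 ratios; purple points are interferon-linked, grey points other members, and dotted lines mark 1.5-fold. Trim30d and Trim14 are at the lower end in both panels, and Trim37 is above control in both. Both panels use the same control array.

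Of the other 28 TRIM genes, Trim39, studied in cell cycle and apoptosis control, was the lowest with either protein. It had 224 under S100a8, 268 under S100a9 and 332 in control cells, 1.48-fold lower with S100a8 (−0.57) and 1.24-fold lower with S100a9 (−0.31). Trim41, a ligase of protein kinase C, had 284 (S100a8), 329 (S100a9) and 363 (control), or −0.35 and −0.14 as log2 ratios to control, and its further probe set 85.5 (S100a8), 92.3 (S100a9) and 106 (control), or −0.31 and −0.20 as log2 ratios to control. Trim11, described in the removal of misfolded proteins, had 484 (S100a8), 547 (S100a9) and 614 (control), or −0.34 and −0.17 as log2 ratios to control. These 3 genes are outside the interferon-linked list and ran in the same order over the arrays as its members. Trim23, which joins a RING to a GTP-binding ARF domain, had 293 (S100a8), 373 (S100a9) and 357 (control), or −0.28 and 0.07 as log2 ratios to control, so the S100a8 array alone was low.

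The NHL-repeat members did not share a direction. Trim3, expressed in neurons, had 247 (S100a8), 255 (S100a9) and 289 (control), or −0.23 and −0.18 as log2 ratios to control. Trim2, which ubiquitinates a neurofilament protein, had 387 (S100a8), 413 (S100a9) and 390 (control), or −0.01 and 0.08 as log2 ratios to control. Trim32, mutated in a limb-girdle muscular dystrophy, had 477 (S100a8), 543 (S100a9) and 471 (control), or 0.02 and 0.21 as log2 ratios to control. The last of this group, Trim71, a factor of embryonic cells, lay below the floor.

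The chromatin regulators with a PHD finger and bromodomain split in direction. Trim28, the corepressor of KRAB zinc finger proteins, had 3009 in S100a8 cells, 3087 in S100a9 cells and 3202 in control cells (−0.09 and −0.05). Trim33, which acts on SMAD signalling, had 897 (S100a8), 1034 (S100a9) and 1037 (control), or −0.21 and −0.004 as log2 ratios to control, with the S100a8 array alone low. Trim24, a coregulator of nuclear receptors, had 458 (S100a8), 426 (S100a9) and 390 (control), or 0.23 and 0.13 as log2 ratios to control, with the control lowest. Trim66 was not compared.

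The highest ratios among the 28 other TRIM genes compared stayed under 1.5-fold. Trim37, a ligase that limits centriole duplication, had 742 (S100a8), 755 (S100a9) and 600.2 (control), or 0.31 and 0.33 as log2 ratios to control, but its 5 probe sets ran from −0.01 to 0.31 with S100a8 and from −0.22 to 0.33 with S100a9. Trim45 had 221 (S100a8), 199.7 (S100a9) and 184 (control), or 0.27 and 0.12 as log2 ratios to control. Trim13, anchored in the endoplasmic reticulum, had 125 (S100a8), 141 (S100a9) and 111 (control), or 0.18 and 0.35 as log2 ratios to control, and Trim40, described in gut epithelium, had 115 (S100a8), 119 (S100a9) and 102 (control), or 0.17 and 0.23 as log2 ratios to control. Trim59, also with a membrane span, had 1188 (S100a8), 1024 (S100a9) and 1011 (control), or 0.23 and 0.02 as log2 ratios to control.

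Several of the higher ratios with S100a8 came from dim probe sets. Trim9, a neuronal ligase, had 98.7 (S100a8), 95.0 (S100a9) and 82.5 (control), or 0.26 and 0.20 as log2 ratios to control, and Trim65, described as a ligase for an RNA sensor, had 103 (S100a8), 83.1 (S100a9) and 86.9 (control), or 0.25 and −0.06 as log2 ratios to control. All 7 other TRIM genes within 1 log2 unit of the floor were above control with S100a8, with a median of 0.18, and so were 1617 of all 2276 genes in that range, with a median of 0.15. The 21 brighter other TRIM genes had a median of 0.02 with S100a8 (10 lower and 11 higher) and 0.04 with S100a9. The 6 interferon-linked genes in the brighter range were all below control, with medians of −0.40 and −0.17. Over the 8862 brighter genes of the arrays, 52.3% lay below control with S100a8 and 47.5% with S100a9, with medians of −0.01 and 0.01.

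**Figure D3:**
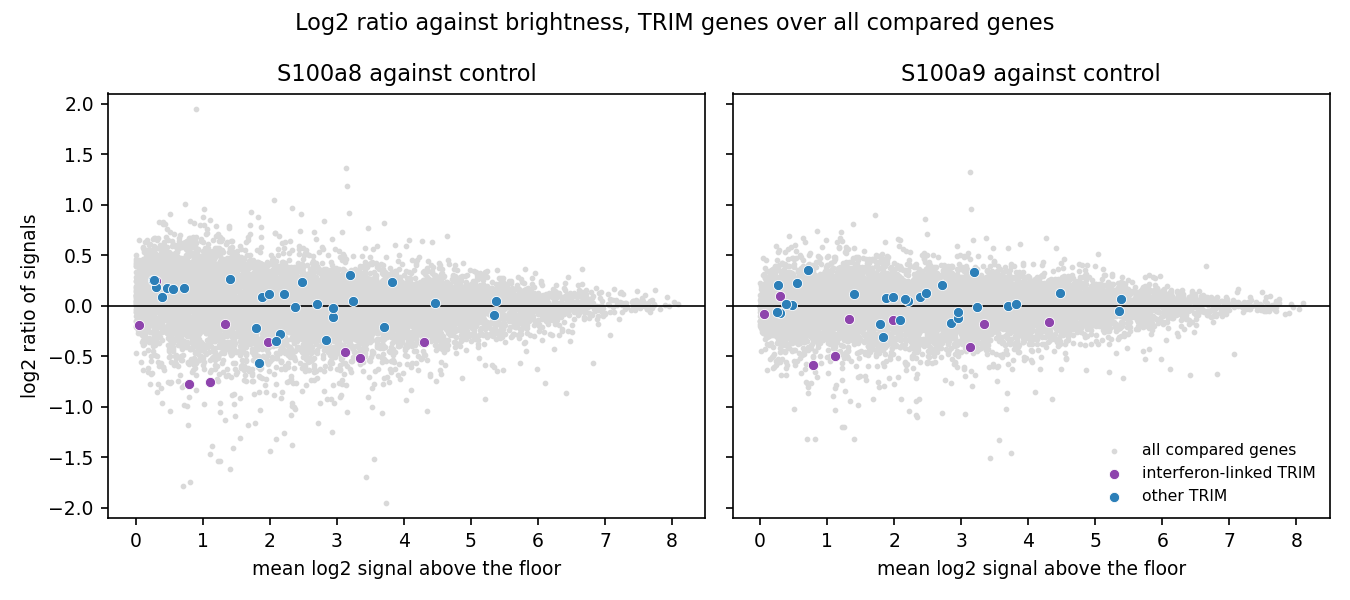
Log2 ratio of signals (vertical) against the mean log2 signal above the floor (horizontal) for all 11138 compared genes in grey, interferon-linked TRIM genes in purple and other TRIM genes in blue, for S100a8 against control and S100a9 against control. Bright interferon-linked members lie below 0 in both panels, and the dim other members lie above 0 with S100a8 along with most dim genes.

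Of the 21 TRIM genes that were not compared, 18 lay below the floor on all arrays. Among them were the muscle gene Trim63, the neuronal Trim67 and Trim46, the testis gene Trim69 and Trim72, which acts in muscle membrane repair. The remaining 3, Trim7, Trim29 and Trim62, lay above the floor on the S100a8 array alone, at 96.4, 84.2 and 94.7. With the control set to the floor, their S100a8 log2 ratios were at least 0.34, 0.15 and 0.32. Trim54, a muscle RING protein, was the exception among muscle members and had 286 (S100a8), 285 (S100a9) and 269.6 (control), or 0.09 and 0.08 as log2 ratios to control. The muscle markers Acta1 and Myh1 were not compared, and Ckm had 97.2 (S100a8), 94.9 (S100a9) and 93.6 (control). Des, the other muscle marker, had 110.02 (S100a8), 91.65 (S100a9) and 86.28 (control), or 0.35 and 0.09 as log2 ratios to control. Of 6 macrophage and leukocyte markers, Cd68, Csf1r and Lyz2 were compared and their log2 ratios lay between 0.20 and 0.63 with the proteins, above control. Ptprc, Adgre1 and Itgam stayed under the floor throughout. The signals of the 6 summed to 1034 (S100a8), 952 (S100a9) and 743 (control), most of it from Cd68 and Csf1r. The 3 markers compared were above control where most interferon-linked TRIM genes were below it, and their part in those ratios was not tested. On these bulk arrays, fewer cells with a transcript and less of it per cell cannot be told apart.

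Probe sets allowed a check within genes. Of the 15 TRIM genes with more than 1 probe set above the floor, 9 had all of them on 1 side of the control with S100a8, and 9 did so with S100a9. The same share was not computed over all genes, so these counts have no background to be read against. Counting each of the 63 TRIM probe sets above the floor on its own, 13 of 15 interferon-linked ones were below control with either protein, with medians of −0.36 (S100a8) and −0.16 (S100a9). Of all 19410 probe sets with 1 gene symbol above the floor, 49.5% were below control with S100a8 and 49.7% with S100a9. Of the 48 others of the TRIM family, 16 were below control with S100a8 (median 0.08) and 19 with S100a9 (median 0.06). Among these genes the probe sets of Trim35, which has been tied to glycolysis, spread most, from −0.61 to 0.05 with S100a8 and from −0.35 to 0.31 with S100a9. Its brightest probe set had 3180.3 (S100a8), 3217 (S100a9) and 3079.9 (control), or 0.05 and 0.06 as log2 ratios to control, another had 142 (S100a8), 172 (S100a9) and 138 (control), or 0.04 and 0.31 as log2 ratios to control, and a dim one had 99.9 (S100a8), 119.9 (S100a9) and 153 (control), or −0.61 and −0.35 as log2 ratios to control. The 6 probe sets of Trim27, a nuclear RING protein, ran from 0.03 to 0.49 with S100a8 and from −0.07 to 0.29 with S100a9.

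**Figure D4:**
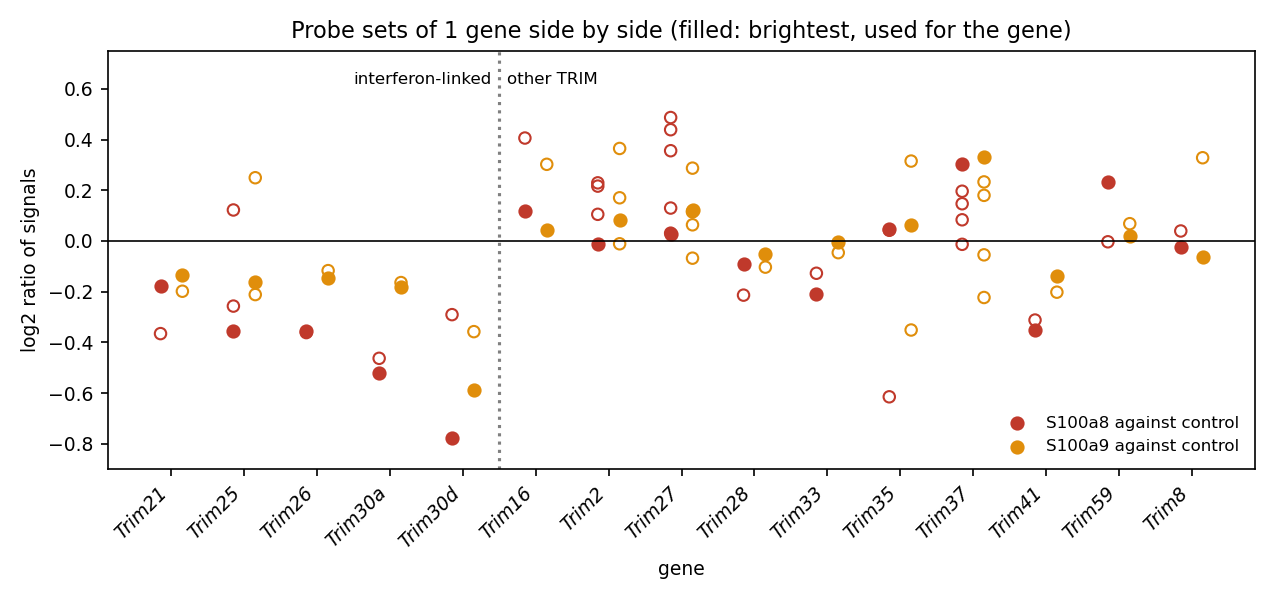
Log2 ratio of signals of every probe set above the floor for the 15 TRIM genes with more than 1, S100a8 against control in red and S100a9 against control in orange; filled points are the brightest probe set, used for the gene, and open points the rest. Probe sets of Trim21, Trim26, Trim30a and Trim30d all lie below 0, Trim25 has 1 dim probe set above it, and Trim35, Trim27 and Trim37 spread widely.

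Set against each other, the single S100a8 and S100a9 arrays differed in their signals for interferon-linked members. Of the 9, 8 had higher signals with S100a9 than with S100a8, and the median log2 ratio of S100a9 against S100a8 was 0.19, against 0.005 for the other TRIM genes and 0.02 over all genes. For Trim5, the exception, the ratio was −0.15. Between the same arrays, the poly-A spike-ins had a median log2 ratio of 0.19 and the hybridization spike-ins −0.03. Their part in these ratios was not tested. In this comparison 1 of 9 interferon-linked and 14 of 28 other members lay below 0, as did 45.1% of all genes. Trim30a, at 799 with S100a9 and 631 with S100a8, had the highest ratio of the interferon-linked group (0.34), and 98.5% of all compared genes had a lower one. Of the 37 TRIM genes compared, Trim23 had the highest ratio (0.35) and Trim65 the lowest (−0.32). Counts at 1.5-fold were 0 TRIM genes in either direction, where 1.01% of all genes were lower and 0.0988% higher.

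The order of S100a8 lowest, S100a9 between and control highest held for 8 of 9 interferon-linked genes and for 6 of 28 other TRIM genes (Trim3, Trim11, Trim28, Trim33, Trim39 and Trim41), and for 23.6% of all compared genes. The comparisons share arrays, so the order and the ratios are not separate observations.

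Of listed interferon transcription factors, 5 were compared (Stat2, Irf1, Irf3, Irf7 and Irf9). With S100a8 all 5 were below control (median log2 ratio −0.49), and with S100a9 4 were (median −0.25). Stat2 had 104 under S100a8, 146 under S100a9 and 186 in control cells (−0.84 and −0.35). Irf7 had 462 (S100a8), 684 (S100a9) and 649 (control), or −0.49 and 0.08 as log2 ratios to control, so the S100a8 array alone was low. Of the 11 compared kin and partners, 6 were below control with S100a8 (median −0.01) and 5 with S100a9 (median 0.03). Ddx58 (−0.67 and −0.39) and Pml (−0.36 and −0.21), an interferon-induced member of the family under its own symbol, were the lowest with S100a8. Mid2, a microtubule-bound member, and Ube2d2a, a ubiquitin-conjugating enzyme, were the highest, with S100a8 ratios of 0.32 and 0.19. Their S100a9 ratios were 0.12 and −0.08.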

How the data were processed

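The deposited intensities are linear probe set values. Per the submitters' processing notes the authors used MAS5. Its version and scaling are not given in the sources used, and no detection calls were used here. The 3 columns were matched to groups through their names and the labelled agent, 1 Affymetrix mouse whole-genome array a group. With so few arrays, precision is limited throughout.

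Genes were named from the platform annotation, which can be old; 5 probe sets naming a TRIM gene among several symbols were left out. All 111 members matched a RefSeq gene by Entrez number, with 0 symbols changed. Promoters came from a RefSeq table (GRCm38.p6) that held 47 of the 58 genes.

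Signals were floored at the 50th percentile (76.0), without the control probe sets, and log2 was taken (Python 3.11.15, pandas 2.3.3). The log2 ratios come from those deposited values, and a fold against the floor is a lower bound. Genes named were all members of the interferon-linked list, the other members with the highest and lowest ratios, and examples by role. Members and lists were chosen with earlier results of these data known. The steps were tested on simulated arrays with 2-fold changes placed in bright genes that have a single probe set. That test does not cover smaller changes, dim genes or genes with several probe sets. Alternatives were other scalings, floors, filters, probe set rules and a 2-fold size.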

Additional observations from a re-analysis of the deposited data

How the results depend on the processing

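Values moved by less than the spread of the poly-A spike-ins (SD of their log2 ratios) for all 90 medians recomputed under 10 alternatives. The interferon-linked median ranged from −0.40 to −0.28 with S100a8, from −0.17 to −0.11 with S100a9 and from 0.08 to 0.28 for S100a9 against S100a8. That of the other TRIM genes ranged from 0.00 to 0.12 and from 0.00 to 0.08 against control, and from −0.05 to 0.10 for S100a9 against S100a8. The last range overlaps the interferon-linked one, but across different alternatives. Within each alternative the interferon-linked median was the higher. It was 0.28 against 0.10 under median centring, and 0.08 against 0.00 without the filter on dim genes. Each compared interferon-linked gene kept its direction under every alternative that gave the gene 1 value. Probe sets counted on their own did not all do so. A dim probe set of Trim25 lay above control with either protein (0.12 and 0.25). A further one of Trim30d was lower with S100a9 than with S100a8 (−0.07). The small counts at 1.5-fold did not hold. With S100a8, the 2 TRIM genes lower (both interferon-linked) became 0 at 2-fold, under the mean over a gene's probe sets or under a 65th percentile floor, and 1 among genes at least 1 log2 unit above the floor. With S100a9, the 1 lower became 0 under median centring, quantile normalization, a 65th percentile floor, log2(value + 1) without a floor, the mean over a gene's probe sets, the brighter genes or 2-fold. Among other TRIM genes, 1 was lower with S100a8 under median centring and 1 when each probe set counted on its own. With the floor at the 30th percentile, 3 other TRIM genes were higher with S100a8 and 1 was lower for S100a9 against S100a8. Under the main floor of 76.0, the control signals of Trim7 (59.6), Trim29 (50.4) and Trim62 (56.9) had been raised to it. The cause was not tested. The limit at 1 log2 unit and the count by probe set were chosen after seeing the data. No paired analysis was possible because each group holds 1 array.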
